A study of Drosophila melanogaster with 24 samples.

Results

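The proteasome subunit genes of Drosophila melanogaster were followed in 2 tissues, the ventral nerve cord (VNC) and the indirect flight muscles (IFM), of pupae and adults that had or had not fed on methylmercury (MeHg) as larvae. Members were all protein-coding genes whose symbol begins with Prosalpha, Prosbeta, Rpn or Rpt and a digit, which gave 48 of the 13924 protein-coding genes and of the 17545 genes counted in all. Of these, 32 carry the plain symbol of a subunit and are called core members here: 7 alpha-ring genes, 7 beta-ring genes, 6 Rpt genes and 12 Rpn genes. The other 16 carry a T or R after the subunit number and are called testis-type paralogs. The choice rested on symbols and used no measured value, though earlier results of these data were known when it was made.

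The proteasome degrades proteins that have been tagged with ubiquitin. Its core particle is a barrel of outer alpha rings, which gate the entrance, and inner beta rings, in which Prosbeta1, Prosbeta2 and Prosbeta5 carry the caspase-like, trypsin-like and chymotrypsin-like active sites. The regulatory particle caps the barrel: in its base the Rpt ATPases unfold substrates and Rpn10 and Rpn13 bind ubiquitin, and in its lid Rpn11 removes the ubiquitin chain before degradation. Drosophila also has duplicated subunit genes, many of them expressed mainly in the male germline, where proteasomes with alternative subunits work in sperm development. In muscle the proteasome takes part in protein turnover and remodelling, and pupal flight muscle at the stage sampled is still being built.

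Total RNA of 24 libraries was sequenced, in 8 groups of 3 that cross tissue, stage and treatment. Per the labels, larvae were moved at the first instar to food with 5 µM methylmercury chloride or, as control, with 0.01% DMSO, the solvent. Pupae were taken 30 h after the puparium formed, and adults at an age of 15 days after life on food free of MeHg from eclosion on, so adult effects are those of an exposure that had ended. The groups were therefore control and MeHg pupal IFM, control and MeHg pupal VNC, control and MeHg adult IFM, and control and MeHg adult VNC. IFM comprised the dorsal longitudinal and dorsoventral muscles, VNC was taken without the central brain, all animals were fixed in Methacarn before dissection, and each library pooled 50 animals. The labels give neither the sex of the animals nor a strain. Control libraries are numbered 1 to 3, and the adult MeHg libraries are numbered 1, 3 and 4. The sample titles also carry a tag of a meaning the labels do not give. Every pupal library carries a tag that no adult library carries, so a stage difference cannot be told apart from a difference between tags.

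The counts of a library, in units of 1e6, totalled between 12.4 and 39.3 (median 30.5), and the lowest total was that of pupal VNC MeHg 2. Levels are given as CPM (counts per 1e6 counts of a library, TMM-scaled over the 24 libraries). The summed CPM of 10 flight muscle markers was 46795 to 87711 in IFM and 334 to 1210 in VNC libraries, and that of 10 neuron markers was 7825 to 23935 in VNC and 280 to 937 in IFM libraries, so the tissue labels held. Fat body and yolk transcripts (6 markers) were present throughout, at 22319 to 67064 CPM in adult IFM, 7521 to 17980 CPM in pupal IFM, 9339 to 17162 CPM in pupal VNC and 6043 to 9063 CPM in adult VNC libraries. Gut transcripts (6 markers) reached 458.5 to 11575 CPM in adult IFM and 9.60 to 515 CPM in adult VNC. A pair of libraries stood apart from their groups in the members and are named beside each result they touch: pupal VNC MeHg 2, and adult VNC control 2, which held transcripts of late spermatogenesis.

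Core members were expressed in every group and testis-type paralogs were near the floor. Over all libraries, 31 core members held 19846 to 101061 counts each, with a median of 49921. The 15 testis-type paralogs with more than 1 count held 48 to 1813 counts, with a median of 145. The remaining core member, Prosalpha1 (2R, bases 7827303 to 7828678), had 0 counts in all 24 libraries, and its paralog Prosalpha1R (2R, bases 7830413 to 7831771), which lies 1734 bases away, had 1. CG18853, which lies between them, also had 0 counts. How the counting treated reads that match more than 1 gene is not given in the sources used here, so the 0 is not read as absence of expression and Prosalpha1 enters no test. Of the 32 core members, 13 share exonic bases with a neighbouring gene on the opposite strand, up to 13.0% of the exons of Rpt6, and the strand setting of the counting is not given either, so values of those members are less certain.

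Among control groups, the core members took the largest share of the library in pupal flight muscle and the smallest in adult nerve cord. Their counts made up between 0.369% and 0.375% of each control pupal IFM library and between 0.297% and 0.315% of each pupal VNC one, against 0.182% to 0.235% for muscle of adults and 0.116% to 0.125% for nerve cord of adults. Summed over the 31 core members, the level was 3811 ± 235 CPM (SD, n = 3) in control pupal IFM, 2601 ± 124 CPM in pupal VNC, 2604 ± 352 CPM in adult IFM and 1144 ± 38.6 CPM in adult VNC. Pupal IFM libraries stood above all others among the controls and adult VNC libraries below all others, while pupal VNC (2468 to 2712 CPM) and adult IFM (2341 to 3003 CPM) overlapped. In bulk tissue, fewer cells of a type and less RNA per cell cannot be told apart, and this holds for every difference below.

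**Figure D1:**
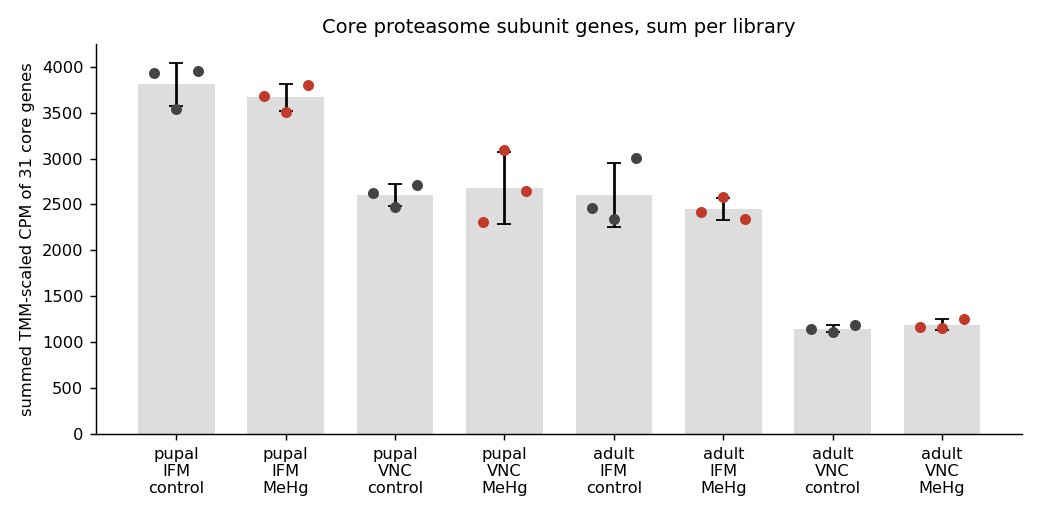
Summed CPM of the 31 core members in each of the 24 libraries, by group, with the mean of each group; CPM is TMM-scaled over all libraries. The control libraries of adult VNC lie at 1106 to 1183 CPM and those of pupal IFM at 3539 to 3957 CPM, and MeHg libraries overlap their controls in pupal IFM, pupal VNC, adult IFM and adult VNC.

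In nerve cord, the whole set of measured core members was lower in adults than in pupae. All 31 fell by the quasi-likelihood test of edgeR (called at a Benjamini-Hochberg adjusted p under 0.05, over all genes of the fit), where 32.6% of all 11870 genes fell. The median log2 fold change, adult minus pupal control, was -1.28 over the core members, a 2.43-fold decrease, and 0.05 over all genes. The members stayed close together: their log2 changes ran from -1.58 for Prosalpha6 to -0.83 for Rpt6, with an SD of 0.18 over members. In each of the 31 the 3 adult libraries lay below the 3 pupal ones, which held in the lower direction for 36.3% of all genes.

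Among the alpha subunits, which form the gated outer ring, Prosalpha6 was at 77.4, 73.7 and 81.2 CPM in the control pupal VNC libraries and at 27.4, 25.9 and 26.6 CPM in the adult ones. The groups were far apart, and Prosalpha6 fell by 1.58 on the log2 scale (SE 0.10, edgeR adjusted p = 5.75e-08). Prosalpha2, another subunit of the outer ring, read 82.8, 80.03 and 87.3 CPM in pupae and 32.9, 31.6 and 32.6 CPM in adults, and fell by 1.40 (edgeR adjusted p = 1.37e-08).

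Among the beta subunits, the active-site subunit Prosbeta1 went from 52.9, 46.9 and 51.1 CPM in pupal VNC to 19.3, 20.5 and 18.2 CPM in adult VNC, a log2 change of -1.42 (SE 0.10, edgeR adjusted p = 1.28e-07). Prosbeta3, which has no active site, read 72.5, 62.8 and 70.6 CPM in pupae and 23.9, 23.5 and 24.3 CPM in adults, a log2 change of -1.56 (edgeR adjusted p = 2.63e-08). Neither pair of groups overlapped. The remaining active-site subunits fell by like amounts, Prosbeta2 by 1.24 and Prosbeta5 by 1.20 on the log2 scale. In the regulatory particle the lid deubiquitinase Rpn11 fell by 1.32, and the ubiquitin receptors Rpn10 and Rpn13 fell by 1.02 and 0.85. By part of the complex, the median log2 change was -1.37 for the alpha ring, -1.30 for the beta ring, -1.07 for the Rpt ATPases, -1.17 for the other base subunits and -1.28 for the lid. In the same control libraries the summed neuron markers went from 7825 to 8456 CPM in pupae up to 23036 to 23299 CPM in adults. The sum of 6 glia markers went from 842 to 876 CPM up to 3681 to 3797 CPM. That of the fat body markers went from 14225 to 17162 CPM down to 8168 to 9063 CPM. Single fat body markers were split: 3 were called higher in adults and 3 lower, with a median log2 change of 4.04. The summed gut markers went from 0.934 to 1.20 CPM up to 264 to 515 CPM, and all 5 gut markers tested were called higher. Of all genes, 31.7% were called higher and 32.6% lower. The part of these transcripts in the falls was not tested.

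Flight muscle showed a divided set: 20 of the 31 core members fell from pupae to adults, none rose, and 11 did not pass the test, where 36.7% of all 11347 genes fell and 74.4% passed in either direction. The median log2 change was -0.51 over the core members and -0.04 over all genes. The spread over members was wide, from -1.80 for Prosalpha6 to 0.26 for Rpt6 with an SD of 0.53. All 4 base subunits other than the ATPases fell, as did 4 of 6 alpha, 4 of 7 beta, 5 of 8 lid and 3 of 6 Rpt genes. The split depended on the scaling: with RLE scaling, and with DESeq2, 20 members fell and Rpn6 and Rpt6 rose (log2 0.25 and 0.31 under RLE), and once the trend with gene length was taken out of each library 30 fell. That removal moved the median of all genes to -0.39 and that of the core members to -1.06, so the core median lay 0.471 below the median of all genes before it and 0.677 below it after. The split also depended on single libraries. Without adult IFM control 3, Prosalpha5, Prosbeta3 and Rpn12 were called lower as well. Without control 2, Rpn6 and Rpt6 were called higher, and without control 1, Rpn6 was. Prosbeta7 lost its call in 3 of 11 alternatives. Markers of other cell types moved with stage in the same libraries. From control pupal to control adult IFM, the summed fat body markers went from 7521 to 14655 CPM up to 54762 to 67064 CPM, the gut markers from 0.182 to 2.87 CPM up to 458.5 to 7342 CPM, and the 6 haemocyte markers from 84.2 to 121 CPM up to 958 to 1653 CPM. No pair of ranges overlapped. Single fat body markers were split: 4 were called higher in adults and 2 lower, with a median log2 change of 6.84. Of the 6 gut markers 5 were called higher and 0 lower, and of the 6 haemocyte markers 6 and 0. Of all genes, 37.7% were called higher and 36.7% lower. The part of these transcripts in the changes was not tested.

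The largest falls in muscle were in Prosalpha6, Rpn11, Rpn7 and Prosbeta4. Prosalpha6 was at 148, 125 and 144 CPM in the control pupal IFM libraries and at 31.3, 39.9 and 46.2 CPM in the adult ones, and fell by 1.80 (SE 0.12, edgeR adjusted p = 6.86e-08). Rpn11 was at 104, 83.1 and 111 CPM in pupae and at 26.8, 31.8 and 34.2 CPM in adults, and fell by 1.65 (SE 0.11, edgeR adjusted p = 7.32e-08). For both genes the lowest pupal library stood well above the highest adult one. The lid subunit Rpn7 fell by 1.34 and the structural beta subunit Prosbeta4 by 1.24. The ubiquitin receptors also fell, Rpn10 from 148, 134 and 137 CPM to 59.5, 59.5 and 68.2 CPM (log2 -1.14, edgeR adjusted p = 1.96e-07), and Rpn13 by 0.44 (edgeR adjusted p = 0.000905).

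The active-site subunits took different courses in muscle. Prosbeta1, the caspase-like subunit, read 89.7, 83.8 and 87.0 CPM in control pupal IFM and 75.5, 70.9 and 106 CPM in adult IFM, so the groups overlapped, with a log2 change of -0.02 (SE 0.13, edgeR adjusted p = 0.884). Prosbeta5, the chymotrypsin-like subunit, read 154, 140.4 and 152 CPM in pupae and 147, 133 and 174 CPM in adults, which also overlapped, with a log2 change of 0.05 (SE 0.10, edgeR adjusted p = 0.653). Prosbeta2, the trypsin-like subunit, was lower in each adult library (49.8, 49.2 and 59.3 CPM) than in each pupal one (98.2, 80.2 and 96.3 CPM), and fell by 0.77 (edgeR adjusted p = 9.38e-06). With the length trend removed, Prosbeta1 and Prosbeta5 fell as well, with log2 values of -0.78 and -0.62. Rpn6, a lid scaffold subunit, was at 141, 123 and 148 CPM in pupae and 142, 139 and 184 CPM in adults (log2 0.20, edgeR adjusted p = 0.1).

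**Figure D2:**
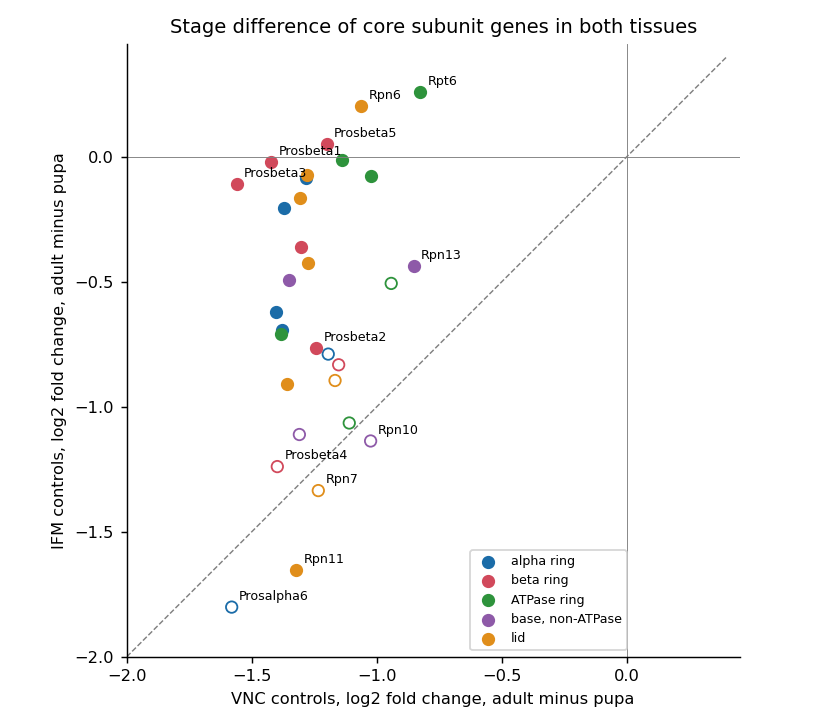
Log2 fold change from control pupae to control adults in VNC (x axis) against IFM (y axis) for the 31 core members; the dashed line marks equal change, filled points are members whose change differed between the tissues, open points are the others. Changes in VNC run from -1.58 to -0.83 and those in IFM from -1.80 to 0.26, with Prosbeta3, Prosbeta1, Rpn6 and Prosbeta5 above the line and Rpn11 below it.

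The stage change itself differed between the tissues for 21 of the 31 core members in the interaction test on all 24 libraries, where 53.0% of all 12631 genes did. Of these, 20 had the higher change in IFM, having fallen less there or passed no test there (26.4% of all genes were called in that direction) and 1, Rpn11, fell more in IFM (26.6% of all genes). The median of the difference, IFM minus VNC, was 0.61 on the log2 scale over the core members and -0.08 over all genes. All 11 members that passed no test in IFM were called in this difference. The largest differences were 1.39 for Prosbeta3 (SE 0.15, edgeR adjusted p = 2.44e-07), 1.33 for Prosbeta1 (adjusted p = 1.48e-06), 1.20 for Rpn6 (adjusted p = 8.02e-07) and 1.19 for Prosbeta5 (adjusted p = 2.11e-06). Prosbeta2 and Rpn13 differed less, by 0.41 (adjusted p = 0.0266) and 0.35 (adjusted p = 0.0481), and Rpn11 differed by -0.40 (adjusted p = 0.0356). These calls were less firm: of 18 alternatives, Rpn13 lost its call in 13, Rpn11 in 7 and Prosbeta2 in 3, of which 9, 5 and 2 left out a single library. The difference for Prosalpha6 was -0.29 (adjusted p = 0.157) and for Rpn10 -0.17 (adjusted p = 0.381), and neither was called. Prosalpha6 was called lower by DESeq2 (adjusted p = 0.0475), without adult IFM control 3 (adjusted p = 0.0469) and with the length trend removed (-0.70, adjusted p = 0.000642). After removal of the length trend the split was 14 higher and 5 lower, with a median of 0.27. Prosalpha6, Rpn10, Rpn7 and Prosbeta4 then joined Rpn11 among those that fell more in muscle. The same removal moved the median of all genes to -0.24, so the core median lay 0.508 above it, against 0.691 before.

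Control muscle had higher core levels than control nerve cord at both stages. In pupae, 29 of 31 core members were higher in IFM, where 25.9% of all 12631 genes were, with a median log2 difference (IFM minus VNC) of 0.55 against -0.11 over all genes. In adults 30 of 31 were higher, where 35.0% of all genes were, with a median of 1.05 against -0.13. The comparisons use the same control libraries as the stage comparisons above. RLE scaling moved the median of all genes to 0.04 in pupae and 0 in adults; the core members then lay 0.681 and 1.19 above it, against 0.657 and 1.18 with TMM. With the length trend removed they lay 0.320 and 0.867 above it. Short genes were higher in IFM in general, with a Spearman correlation over genes of log2 difference with exonic length of -0.306 in pupae and -0.364 in adults, and the core members are short (median exonic length 1304 bases against 2288 over all genes of at least 5 CPM). In that alternative 24 were called higher in pupae, and in adults 23 were higher and 1, Rpn11, lower.

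In pupae the largest tissue differences were 0.91 for Prosalpha5, 0.84 for Prosalpha6, 0.83 for the lid subunit Rpn9 and 0.80 for Prosbeta5. The active-site subunit Prosbeta1 was 0.79 higher (edgeR adjusted p = 7.95e-06) and Prosbeta2 0.42 (adjusted p = 0.00161). Rpn11, Rpn10 and Rpn13 were 0.61, 0.63 and 0.59 higher in IFM. The lid subunits Rpn6 (0.11, adjusted p = 0.363) and Rpn8 (0.25, adjusted p = 0.0606) did not pass the test, and both passed it with RLE scaling.

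In adults the largest differences were those of Prosbeta1, Prosalpha5, Prosbeta5 and Prosbeta3, and the smallest was that of Rpn11. Prosbeta1 was at 75.5, 70.9 and 106 CPM in control adult IFM and at 19.3, 20.5 and 18.2 CPM in adult VNC, a log2 difference of 2.12 (SE 0.12, edgeR adjusted p = 4.05e-12). Prosbeta5 was at 147, 133 and 174 CPM in IFM and at 36.9, 36.7 and 40.9 CPM in VNC, a log2 difference of 1.99 (SE 0.11, edgeR adjusted p = 2.62e-12). Every muscle library stood above every nerve cord library for both genes. The difference was 2.01 for Prosalpha5 and 1.73 for Prosbeta3, while Prosbeta2 (0.83), Rpn13 (0.94) and Rpn10 (0.46) differed less. Rpn11 read 26.8, 31.8 and 34.2 CPM in adult IFM and 26.8, 25.6 and 27.8 CPM in adult VNC, which overlapped at their ends (log2 0.21, edgeR adjusted p = 0.0941; called higher with RLE scaling and lower with the length trend removed). Fat body and gut markers were present in the adult IFM libraries at the levels given above, and their part in these differences was not tested.

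Levels of subunits were compared with one another per kilobase of exonic length. In control pupal IFM the highest was Prosbeta5 at 131 ± 6.38 CPM per kb (SD, n = 3) and the lowest Rpn13 at 54.2 ± 2.21, a 2.41-fold range with a coefficient of variation of 22.6% over the 31 members. Prosalpha6 came next at 129.85 ± 11.4, a gap inside their SDs. In control pupal VNC Prosalpha2 was highest at 90.6 ± 3.99 CPM per kb and Rpn13 lowest at 36.1 ± 2.42, a 2.51-fold range and 19.3%. In control adult VNC Prosalpha2 was again highest at 35.2 ± 0.735 CPM per kb, with Prosalpha7 next at 34.2 ± 1.29, a gap inside their SDs, and Prosbeta4 was lowest at 15.6 ± 1.39, a 2.25-fold range and 20.2%. Adult IFM had the widest range of the control groups: Prosbeta5 was highest at 133 ± 18.2 CPM per kb and Rpn11 lowest at 25.6 ± 3.13, with Prosbeta4 next at 28.9 ± 5.03, a 5.18-fold range and 40.8%. The lowest neighbours in that order, Rpn11 and Prosbeta4, did not differ beyond their SDs. The MeHg group of adult IFM also had a wide range, 3.95-fold with a coefficient of variation of 32.7%.

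**Figure D3:**
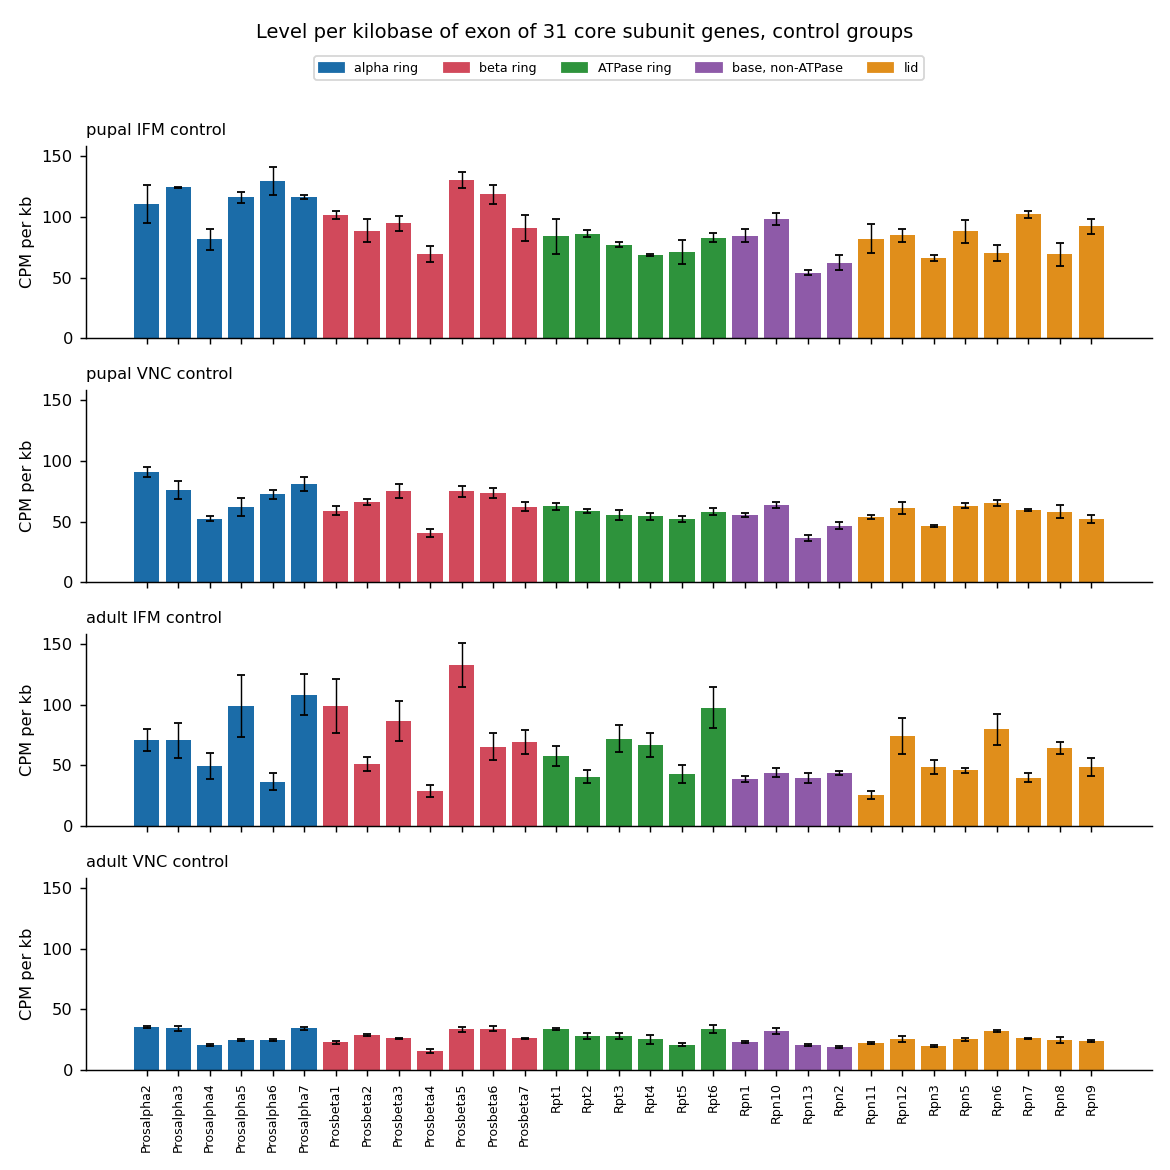
Mean level of the 31 core members in the 4 control groups, in CPM per kilobase of exonic length (3 libraries per group). Members span 2.25-fold to 2.51-fold in pupal IFM, pupal VNC and adult VNC and 5.18-fold in adult IFM, from Rpn11 at 25.6 to Prosbeta5 at 133 CPM per kb.

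Larval MeHg gave 1 call among the core members over the 4 tissue and stage groups. In pupal IFM, sampled after the larval feeding on MeHg, none of the 31 core members passed the test, where 3.01% of all genes did. The edgeR test gave 3 members at an unadjusted p under 0.05, and DESeq2 called 0. The median log2 change, MeHg minus control, was -0.12 against 0.00 over all genes, 26 members lay below 0, and values ran from -0.27 for Prosalpha7 to 0.10 for Prosalpha2. The MeHg and control ranges were separate for 9 members (29.0%, against 23.3% of all genes). Over the members the 95% intervals reached from -0.53 to 0.33 on the log2 scale, which bounds what these libraries leave possible. In the same comparison short genes were lower in MeHg libraries than long ones (Spearman 0.409 over genes; median log2 change -0.222 in the 10% shortest genes and 0.195 in the 10% longest), and with that trend removed the core median was 0.03.

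The active-site subunits Prosbeta5 and Prosbeta2 lay near the low end of the core members in pupal muscle, whose median was -0.12. Prosbeta5 was at 154, 140.4 and 152 CPM in control libraries and 125, 121 and 135 CPM in MeHg libraries, all 3 below the controls (log2 -0.26, SE 0.10, edgeR adjusted p = 0.166). Prosbeta2 was at 98.2, 80.2 and 96.3 CPM in control libraries and 77.5, 76.3 and 82.2 CPM in MeHg libraries, which overlapped (log2 -0.25, SE 0.09, edgeR adjusted p = 0.153). Neither passed the threshold, and neither did Prosbeta1 (log2 -0.15), Rpn10 (-0.14), Rpn11 (-0.07) or Rpn13 (-0.06), whose edgeR adjusted p-values ran from 0.37 to 0.797.

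In pupal VNC no core member was called, where 0.531% of all genes were. The edgeR test gave 0 members at an unadjusted p under 0.05 and DESeq2 called 0. The median log2 change was 0.03 against 0.00 over all genes, and values ran from -0.14 for Rpn8 to 0.35 for Rpn7. One library decided the upper end. In pupal VNC MeHg 2, Rpn7 was at 148 CPM, against 76.3 and 88.8 CPM in the other MeHg libraries and 84.2, 81.6 and 83.1 CPM in the controls. Prosalpha7 was at 134 CPM there, against 67.6 and 79.7 CPM in the other MeHg libraries and 78.8, 73.5 and 84.9 CPM in the controls. These genes were chosen after their values were seen: set against the mean of the other MeHg libraries, that library read higher for 24 core members and lower for 7, from 0.834-fold for Prosalpha6 to 1.82-fold for Prosalpha7. It was also the library with the fewest counts, and without it the core median was -0.09. Over the 31 members the 95% intervals reached from -0.34 to 0.79.

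In adult IFM, Rpn11 rose and the other 30 core members passed no test. Calls of either direction made up 7.6% of all genes and calls of a rise 3.67%. Rpn11 was at 26.8, 31.8 and 34.2 CPM in control libraries and 42.6, 40.9 and 35.1 CPM in MeHg libraries. All 3 MeHg libraries stood above the controls, the nearest pair by less than the SD of either group, and the log2 change was 0.40 (SE 0.11, edgeR adjusted p = 0.0454). The call was lost in 10 of 14 alternatives, with adjusted p-values from 0.00485 to 0.152, among them the removal of any 1 MeHg library, of control 1 or of control 2. Over the core members the median was -0.0036 against -0.0094 over all genes, 6 had an unadjusted p under 0.05, and values ran from -0.37 for Prosalpha5 to 0.40 for Rpn11, with 95% intervals that reached from -0.70 to 0.63. The ranges were separate for 3 members, 9.68% against 26.8% of all genes. DESeq2 called Rpn11 and also Rpn1, the base scaffold, as higher. Without control 2, Rpt4 and the lid subunit Rpn12 were called lower and Rpn11 was not; without control 3, Rpn11 and Prosalpha6 were called higher. The tag in the sample titles sets MeHg 4 apart from the other adult IFM libraries, and with the tag as a term Rpn11 was at 0.46 (edgeR adjusted p = 0.121).

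Other markers differed between the same libraries. The summed fat body markers were at 56481, 67064 and 54762 CPM in the adult IFM controls and 41407, 22319 and 32230 CPM in the MeHg libraries, and the flight muscle markers at 85094, 63662 and 83202 CPM and 50728, 59559 and 46795 CPM. Both ranges were separate, the MeHg libraries being lower. The same held for the sums of the glia markers (1885 to 2031 CPM in controls, 1510.4 to 1755 CPM in MeHg libraries) and of the 20 male germline markers (457 to 548 CPM and 380.0 to 450.0 CPM). No glia marker and none of the 13 germline markers tested was called, where 7.6% of all genes were. Their median log2 changes were above 0, at 0.06 and 0.20. Of the fat body markers 0 were called and of the flight muscle markers 3 of 10, all lower, with medians of -0.97 and -0.18. The gut markers overlapped, at 3795, 7342 and 458.5 CPM in controls and 11575, 5911 and 6691 CPM in MeHg libraries. The part of these transcripts in the Rpn11 difference was not tested.

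In adult VNC no core member was called, where 0.0674% of all genes were. The edgeR test gave 2 members at an unadjusted p under 0.05 and DESeq2 called 0. The median log2 change was 0.13 against 0.05 over all genes, 29 of 31 members lay above 0, and values ran from -0.14 for Prosalpha7 to 0.25 for Rpt6, with 95% intervals that reached from -0.60 to 0.60. Prosbeta5 was at 36.9, 36.7 and 40.9 CPM in control libraries and 40.1, 41.3 and 46.9 CPM in MeHg libraries, which overlapped (log2 0.22, edgeR adjusted p = 0.411). Without adult VNC control 2 the median was 0.05.

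**Figure D4:**
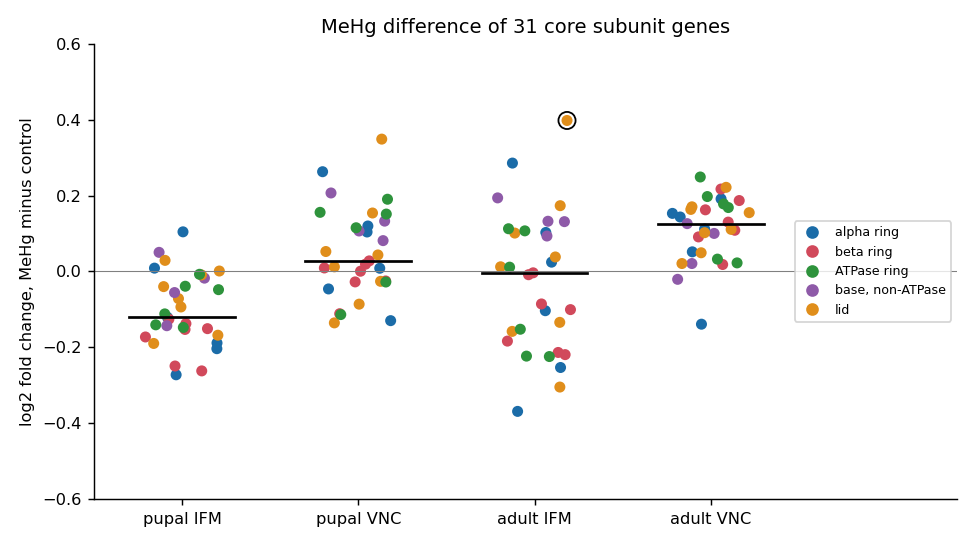
Log2 fold change, MeHg minus control, of the 31 core members in pupal IFM, pupal VNC, adult IFM and adult VNC; each point is 1 member, the horizontal lines are medians (-0.12, 0.03, -0.0036 and 0.13) and the ringed point is Rpn11 in adult IFM, the only call. Values run from -0.37 to 0.40.

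The MeHg effect on core members was not called as different between stages or tissues. In IFM, adult minus pupal effect, 0 of 31 were called (2.69% of all genes), with 3 at an unadjusted p under 0.05 and 1 called by DESeq2, Rpn11, whose difference in the edgeR fit was 0.47 (adjusted p = 0.12). In VNC the count was 0 (0.00842% of all genes), with 2 at an unadjusted p under 0.05 and 0 by DESeq2. Between tissues, IFM minus VNC effect, 0 were called in pupae (0.245% of all genes; 0 at an unadjusted p under 0.05, 0 by DESeq2). In adults 0 were called (3.38% of all genes; 7 at an unadjusted p under 0.05, 0 by DESeq2), and the largest difference was that of Prosalpha5, -0.50, with Prosbeta5 at -0.43 (95% interval -0.75 to -0.10, edgeR adjusted p = 0.131).

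Of the 16 testis-type paralogs, Rpn13R, Rpt3R and Rpt6R reached 1 CPM in every library of at least 1 group. Rpn13R, a paralog of the ubiquitin receptor, was higher in nerve cord than in muscle. It read 3.07, 3.60 and 2.97 CPM in control pupal VNC and 0.424, 0.787 and 0.583 CPM in pupal IFM, and 3.31, 4.35 and 5.00 CPM in control adult VNC and 0.691, 1.04 and 0.457 CPM in adult IFM. Each nerve cord library stood above each muscle library, the reverse of Rpn13 itself, with log2 differences (IFM minus VNC) of -2.42 in pupae (edgeR adjusted p = 6.73e-07) and -2.53 in adults (adjusted p = 2.1e-07). Over all genes tested, 34.1% were lower in IFM in pupae and 38.0% in adults.

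Rpt6R, a paralog of an ATPase, was highest in pupal nerve cord. It was at 4.17, 4.15 and 3.70 CPM in control pupal VNC, against 0.726, 1.18 and 0.874 CPM in pupal IFM, and the log2 tissue difference was -2.11 (edgeR adjusted p = 0.00748). In adult VNC it read 0.294, 2.09 and 0.314 CPM, all below the pupal libraries, and fell by 2.25 (edgeR adjusted p = 0.00732). The middle value is adult VNC control 2, and without that library the change was -3.70 on the log2 scale, still called. The adult tissue difference was -1.80 (edgeR adjusted p = 0.022) with that library and -0.10 (adjusted p = 0.894) without it. In IFM it fell by 1.83 from pupae to adults (edgeR adjusted p = 0.0234), a call lost in 4 of 11 alternatives.

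Rpt3R, another ATPase paralog, fell in muscle and was not called in nerve cord. It was at 1.33, 1.40 and 1.31 CPM in control pupal IFM and at 0.276, 0.167 and 0.0352 CPM in adult IFM, with no overlap, and fell by 3.02 (SE 0.64, edgeR adjusted p = 0.0012). In VNC it was at 0.534, 1.10 and 0.797 CPM in pupae and 1.04, 2.15 and 1.59 CPM in adults, which overlapped (log2 0.91, edgeR adjusted p = 0.0882). The difference of the stage changes was -4.02 (SE 0.78, edgeR adjusted p = 0.000216), and the adult tissue difference was -3.29 (adjusted p = 4.55e-05). These calls held in every alternative run. At these levels a library held few counts of the gene, and the log2 values of genes so low depend on the prior count of the fit.

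The remaining 12 paralogs with counts (Rpt4R, Rpn12R, Prosalpha3T, Prosalpha4T1, Prosalpha4T2, Prosalpha6T, Prosbeta2R1, Prosbeta2R2, Prosbeta4R1, Prosbeta4R2, Prosbeta5R1 and Prosbeta5R2) held 1466 counts in all libraries together. Of these, 606 counts, or 41.3%, were in adult VNC control 2 alone, against 20 and 47 in the other control adult VNC libraries. In that library 9 markers of late spermatogenesis, among them the sperm chromatin genes Mst77F and ProtA and the sperm tail gene dj, summed to 3105 counts, against 35 and 68 in its sister libraries. Smaller amounts of both appeared together elsewhere: pupal IFM control 2 held 137 counts of the paralogs and 652 of the markers, pupal VNC MeHg 1 held 114 and 473, pupal IFM MeHg 2 held 95 and 384, and pupal VNC control 2 held 75 and 350. The other libraries held 3 to 58 counts of the paralogs and 16 to 219 of the markers. These levels are a description, and whether testis tissue entered the dissections was not tested.

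**Figure D5:**
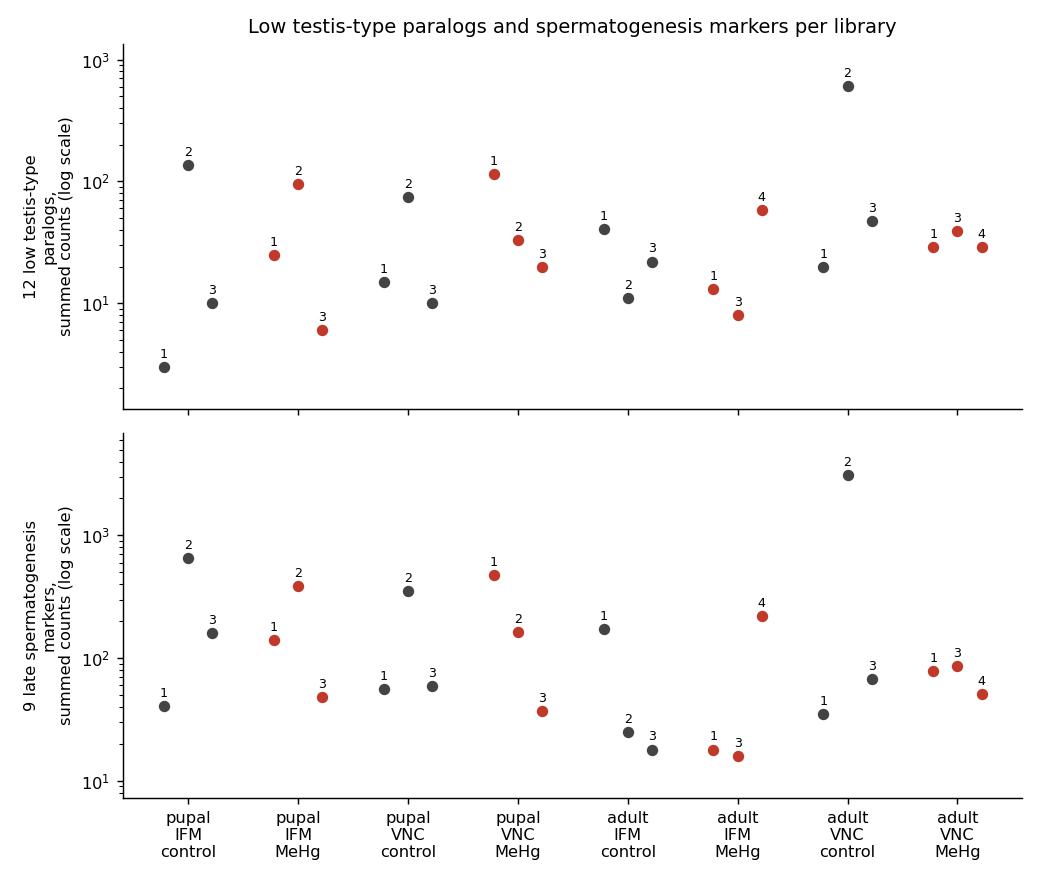
Summed counts of 12 low testis-type paralogs (upper panel) and of 9 late spermatogenesis markers (lower panel), by group, in the 24 libraries. The y axes are on log scales, and each point is 1 library with its replicate number. Adult VNC control 2 lies apart at 606 and 3105 counts, and pupal IFM control 2 comes next at 137 and 652.

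Some calls among these low paralogs were lost when 1 library was left out. Rpn12R, a paralog of a lid subunit, was at 0.347, 2.01 and 0.628 CPM in control adult VNC and 0.240, 0.357 and 0.181 CPM in pupal VNC, which overlapped, and rose by 1.83 (edgeR adjusted p = 0.0179), where 31.7% of all genes rose. Without adult VNC control 2 that change was 0.89 (adjusted p = 0.133). Its adult tissue difference, -3.87 (edgeR adjusted p = 0.00115), was kept in all 13 alternatives (adjusted p 0.000194 to 0.0176). The difference of its stage changes between tissues was -3.46 (adjusted p = 0.0285), which was lost in 7 of 18 alternatives. Prosalpha6T had 119 counts in adult VNC control 2 and 0 and 1 in its sister libraries, and 19 counts in pupal IFM control 2. Its difference in stage change between tissues, -8.02 (edgeR adjusted p = 0.0444), was -2.09 (adjusted p = 0.739) without the former library and -1.63 (adjusted p = 0.92) without the latter.

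No testis-type paralog that could be tested was called for larval MeHg. In IFM 4 were tested and in VNC 7, and edgeR called 0 in each of the 4 comparisons, with 0 in pupal IFM, 0 in pupal VNC, 1 in adult IFM and 1 in adult VNC at an unadjusted p under 0.05, and DESeq2 called 0. The precision differed between these genes. Rpn13R had log2 changes of 0.11 in pupal VNC (95% interval -0.29 to 0.51) and 0.04 in adult VNC (-0.36 to 0.43). Its interval in pupal IFM was -0.13 to 1.74 and in adult IFM -0.87 to 0.97. The widest interval was that of Prosbeta4R2 in adult VNC, -8.45 to 0.46.

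Genes around the proteasome changed in both directions between stages. Over all genes tested, 37.7% rose and 36.7% fell in IFM and 31.7% rose and 32.6% fell in VNC, against which the counts below stand. The 8 accessory genes were Pomp, REG, PI31, Usp14, Uch-L5, Sem1, Txl and ntc, none of which the symbol rule for members took in. Of these, 2 rose and 6 fell from pupae to adults in control VNC, with a median of -0.95. In IFM 3 rose and 4 fell, with a median of -0.43. Of the same 8, muscle exceeded nerve cord for 7 in pupae and 6 in adults, and 1 was called lower at each stage. Over all genes tested, 25.9% were higher and 34.1% lower in muscle in pupae, and 35.0% and 38.0% in adults. The assembly chaperone Pomp fell by 1.21 in VNC (edgeR adjusted p = 6.01e-07) and had a log2 change of 0.01 in IFM (adjusted p = 0.941), a difference of 1.15 between tissues (adjusted p = 5.41e-05). A large share of its exons overlaps vari on the opposite strand, which makes its value uncertain. The activator REG rose by 0.55 in IFM and fell by 0.31 in VNC, and the tissue difference in adults was 1.79 (adjusted p = 6.12e-12). PI31, a proteasome-binding regulator, rose by 0.81 in IFM and 0.26 in VNC and was lower in muscle than in nerve cord at both stages, with log2 differences of -0.77 (pupae) and -0.29 (adults). The associated deubiquitinase Uch-L5 fell in both tissues, by 1.86 in IFM and 1.71 in VNC.

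Of 8 carriers of ubiquitinated proteins, the p97 segregase and its cofactors, 6 rose and 1 fell in IFM (median 0.65), and 1 rose and 5 fell in VNC (median -0.62); the change differed between tissues for 7, and all 7 had the higher change in IFM. Of all genes, 53.0% had a change that differed between tissues, 26.4% with the higher change in IFM. Between adult tissues 7 carriers were higher in IFM (35.0% of all genes) and 1 lower (38.0%). Between pupal tissues 0 were higher (25.9% of all genes) and 2 lower (34.1%). The shuttle factor Rad23 rose by 1.05 in IFM. Npl4, a cofactor of the segregase, was at 74.4, 57.5 and 86.3 CPM in control pupal IFM and at 8371, 6829 and 7234 CPM in adult IFM, a log2 change of 6.72 (SE 0.18, edgeR adjusted p = 2.71e-10), with 56.7, 61.2 and 66.4 CPM in adult VNC. The MeHg adult IFM libraries read 6120.0, 8147 and 6939.7 CPM, in a range that overlapped that of their controls. Its exons overlap no other gene in the annotation, and the source of a level so far above that of the other groups was not established. In VNC the segregase TER94 fell, as did its cofactor p47 (by 0.98). Of 5 genes of the ubiquitin supply, 2 rose and 3 fell in IFM (median -1.02) and 1 rose and 3 fell in VNC (median -0.29). Ubi-p63E, a polyubiquitin gene, rose by 2.49 in IFM, and the ubiquitin-activating enzyme Uba1 fell by 1.56 in IFM and 0.91 in VNC.

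Of 4 regulators of the Nrf type, 2 rose and 1 fell in IFM (median 0.49) and 3 rose and 1 fell in VNC (median 0.41). The transcription factor gene cnc was at 136, 120.1 and 148 CPM in control pupal IFM and at 699, 733 and 730.2 CPM in adult IFM. Its groups did not overlap, and it rose by 2.45 (edgeR adjusted p = 7.74e-10), against 0.45 in VNC (adjusted p = 0.000404), a difference of 1.93 (adjusted p = 5.14e-10). Its partner maf-S rose by 0.84 in IFM (adjusted p = 2.31e-05), which did not hold with the length trend removed, and by 0.52 in VNC (adjusted p = 0.0109).

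Larval MeHg gave a call for 1 of these 25 genes within a tissue and stage, in adult IFM, where 7.6% of all genes were called. The shares of all genes were 3.01% in pupal IFM, 0.531% in pupal VNC and 0.0674% in adult VNC. Rad23 was at 246, 226 and 308 CPM in control adult IFM and at 176, 174 and 166 CPM in MeHg adult IFM, with no overlap, and fell by 0.55 (SE 0.10, edgeR adjusted p = 0.0137; 6.65e-05 to 0.102 over 14 alternatives, of which 4 lost the call). In adult VNC it was at 96.5, 92.3 and 87.2 CPM in controls and 102, 106 and 113 CPM in MeHg libraries. The MeHg effect differed between the tissues by -0.81 (edgeR adjusted p = 0.00807), a call kept in all 19 alternatives. That for REG differed by -0.59 (adjusted p = 0.0334), which was lost in 10 of 19. Of all genes, 3.38% were called in this comparison of adult tissues. The MeHg effect on Rad23 also differed between stages in IFM, by -0.63 (adjusted p = 0.0479), which was lost in 15 of 18 alternatives. There 2.69% of all genes were called. cnc had log2 changes of 0.06, 0.02, -0.28 and 0.12 in pupal IFM, pupal VNC, adult IFM and adult VNC, with an edgeR adjusted p of 0.0569 in adult IFM.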

How the data were processed

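The authors deposited counts per gene, whole numbers for 17545 genes in 24 libraries, and also a normalised signal, made by the authors by dividing each count by a library factor (0.554 to 1.49), which was not tested. Per the submitters' processing notes, the build was dm6 and the tools were STAR 2.7.6a, featureCounts, bcl2fastq 2.19.0 and Subread 2.0.1. The library kit keeps strand, per the labels' protocols, but the strand setting of the counting is not given in the sources used here. Symbols and gene coordinates came from a RefSeq gene table (17504 of 17545 genes matched). Strand, exonic lengths (union of exons) and exon overlaps came from an Ensembl annotation of the same Release 6 assembly.

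The deposited counts were tested in R 4.3.3 with edgeR 4.0.16 (quasi-likelihood F test; limma 3.58.1), TMM scaling, filterByExpr, robust dispersion and Benjamini-Hochberg adjustment over all genes tested. A gene is called when its adjusted p is under 0.05. MeHg and stage effects used a fit to the 12 libraries per tissue (8 residual degrees of freedom), and tissue effects and differences between tissues a fit to all 24 (16 residual degrees of freedom). The labels say that each replicate pooled 50 animals and no more of its origin, so p-values measure the spread between these libraries. The members and gene lists were chosen with earlier results of these data known.

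Named were, per comparison, up to 4 called members with the largest change and at least 5 CPM in the higher group, Prosbeta1, Prosbeta2, Prosbeta5, Rpn10, Rpn11 and Rpn13, testis-type paralogs of at least 1 CPM in every library of a group, the highest and lowest level per length, Pomp, REG, PI31 and cnc, and up to 3 called genes per list, of which the main ones are printed. Members that end a range, called testis-type paralogs, and members called only in an alternative were added after their values were seen. Alternatives were RLE scaling, no low-count filter, DESeq2 1.42.0, a replicate block, removal of each library's lowess trend with exonic length, the tag in the sample titles as a term, only the 6 libraries compared, all 24 libraries, each replicate left out, and, added after seeing the data, both libraries that stood apart left out. The tag was not tried as a term for the stage changes or for their difference between tissues. The tests were tried on simulated data. Promoter motifs were not analysed here.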

Additional observations from a re-analysis of the deposited data

Results flagged for a closer look

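In control animals, 24 members, 21 core and 3 testis-type, had a stage change that differed between IFM and VNC. The interaction test used all 24 libraries (edgeR quasi-likelihood test with Benjamini-Hochberg adjustment). It called 53.0% of all 12631 genes, 67.7% of the 31 core members tested and 27.3% of the 11 testis-type paralogs tested. The named core members were Prosbeta3 (IFM minus VNC on the log2 scale 1.39), Prosbeta1 (1.33), Rpn6 (1.20), Prosbeta5 (1.19), Prosbeta2 (0.41) and Rpn13 (0.35), whose change was higher in IFM, and Rpn11 (-0.40), which fell more there. Rpn13 lost its call in 13 of 18 alternatives, Rpn11 in 7 and Prosbeta2 in 3, among them removal of the length trend for Prosbeta2 and Rpn13 (-0.0061 and 0.09). The calls of Prosbeta3, Prosbeta1, Rpn6 and Prosbeta5 passed in all 18 alternatives. Among testis-type paralogs the differences were -4.02 for Rpt3R, -8.02 for Prosalpha6T and -3.46 for Rpn12R. Prosalpha6T lost its call in 11 of 18 alternatives and Rpn12R in 7, and both read highest in adult VNC control 2, the library with the most counts of late spermatogenesis markers. Groups of 3 libraries are too small for a test of single outlying samples.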

How the results depend on the processing

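Of 91 pairs of a named gene and a comparison, 71 kept their call in every alternative. Of 1233 alternatives for genes, 1133 kept direction and call, 96 lost the call and 4 turned. With the length trend removed, the pupal IFM core median became 0.0319, maf-S in the IFM stage comparison -0.079, and, between adult tissues, Keap1 0.24, RpS27A -0.33 and Uba1 0.54. The core median of the MeHg effect difference between stages in VNC (0.0933) turned to -0.00265 with the length trend removed and -0.0342 with the replicate block, and ran from -0.00683 to 0.226 with 1 library left out, the lowest being without pupal VNC MeHg 1. The pupal VNC median was -0.0946 without pupal VNC MeHg 2 and -0.0924 without both libraries that stood apart, and ran from -0.0946 to 0.0873 with 1 library left out. The adult IFM count of 1 called member became 0 with no filter, with the length trend removed, with the replicate block, with the title tag as a term and with only the 6 libraries compared, 2 with DESeq2, and 0 to 2 with 1 library left out. The adult VNC median of 0.13 became 0.0496 with the length trend removed, 0.0152 with the replicate block, 0.0815 with the title tag, 0.0717 with only 6 libraries, 0.0724 with all 24 and 0.049 without both libraries that stood apart, and ran from 0.0477 to 0.18 with 1 library left out. DESeq2 called 1 member in the MeHg difference between stages in IFM. The cause of these shifts was not tested. Same-numbered libraries correlated at -0.295 to 0.342 over 8350 genes. The pupal MeHg libraries of both tissues correlated at 0.203, 0.116 and 0.323, but the pupal controls at 0.0698, 0.195 and -0.193. In adult VNC, control and MeHg libraries 1 correlated at 0.342, as did libraries 3, and MeHg 4 has no control of its number. The labels do not say whether equal numbers mark pairs, and the main fits used no pairing. With the block, 0 members were called in the MeHg difference between tissues in pupae, as without it. The block, which leaves 3 residual degrees of freedom, took the pupal IFM calls over all genes from 341 to 0. Library depth limits the testis-type paralogs, of which 4 could be tested in IFM and 7 in VNC.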
